A study of Mus musculus with 12 samples.

Results

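Distal intervals were defined as intervals called in the H3K27ac data that lie far from any protein-coding gene. They were chosen by position, width and measured mean score: the autosomal SEACR intervals narrower than 8000 bp, with no protein-coding gene span of the mm10 build within 50 kb and a mean peak score over the 12 libraries below 1. The rule found 35069 of the 166517 SEACR intervals (21.1%), covering 72.1 Mb of 376 Mb. In all 35959 SEACR intervals lay beyond 50 kb of a gene, of which 538 on chromosome X, 341 by width and 11 by score were left out. The 127135 intervals under the same limits of width, chromosome and score, but with a gene inside 50 kb, are called gene-near and serve as the comparison.

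Intestinal organoids, epithelial cultures grown in Matrigel from mouse crypts, were profiled by CUT&RUN, in which a nuclease tethered to an antibody frees the marked DNA for sequencing. There were 6 groups of 2 libraries: wild-type (WT) organoids and Ptger4 knockout (KO) organoids, each given vehicle, 25 µM arachidonic acid (AA) or 50 nM prostaglandin E2 (PGE2). PGE2 signals through EP4, the product of Ptger4, and AA is the fatty acid from which PGE2 is made. The labels conflict on the length of treatment (3 days in one field, 6 in another), and the series' own outline lists a dimethyl form of PGE2 as the agent. All groups shared a medium with EGF, Noggin, R-spondin and the GSK3 inhibitor CHIR-99021, so Wnt signaling was stimulated in the vehicle groups too. The labels give neither the deletion method, the strain nor the number of animals. Nor do they say whether the libraries of a group were separate cultures, so the p-values measure only the spread between these libraries, which may be technical.

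H3K27ac is an acetyl mark on histone H3 that is laid down by the acetyltransferases p300 and CBP at active promoters and enhancers. Enhancers can act over long distances by looping, and some of the best-known ones for developmental regulators lie in gene deserts, long stretches without protein-coding genes. The nearest gene of a distal element is therefore a position label and need not be its target.

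The only regulatory sequence that could be read for distal intervals was that of long non-coding RNA (lncRNA) promoters, because the gene rule counted protein-coding spans alone. Promoter windows of RefSeq (GRCm38.p6, the assembly of mm10; 250 bases before to 50 after the annotated start) were searched for windows touching a distal interval, a step added after other values had been seen. Shown are the windows in the highest-scoring and the lowest-scoring of these intervals, the next highest, and the window of the lncRNA whose interval differed between genotypes. Each is printed 5′ to 3′ on the strand of the lncRNA, with CpG dinucleotides, the substrate of DNA methylation, in capitals.

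4930554I06Rik, chr19:21104460-21104759, plus strand: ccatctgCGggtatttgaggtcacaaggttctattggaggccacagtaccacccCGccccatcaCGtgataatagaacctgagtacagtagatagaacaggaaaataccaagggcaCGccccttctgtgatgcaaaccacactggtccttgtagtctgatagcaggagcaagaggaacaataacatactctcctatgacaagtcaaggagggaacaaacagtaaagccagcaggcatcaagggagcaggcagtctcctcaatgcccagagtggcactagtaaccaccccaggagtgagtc
Gm26761, chr5:64699359-64699658, minus strand: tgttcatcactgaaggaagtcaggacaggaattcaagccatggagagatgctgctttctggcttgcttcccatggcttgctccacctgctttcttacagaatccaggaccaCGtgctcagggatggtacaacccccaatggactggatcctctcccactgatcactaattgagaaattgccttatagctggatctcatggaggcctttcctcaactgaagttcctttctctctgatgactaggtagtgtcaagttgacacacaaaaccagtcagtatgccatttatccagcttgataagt
Gm36059, chr8:123718397-123718696, minus strand: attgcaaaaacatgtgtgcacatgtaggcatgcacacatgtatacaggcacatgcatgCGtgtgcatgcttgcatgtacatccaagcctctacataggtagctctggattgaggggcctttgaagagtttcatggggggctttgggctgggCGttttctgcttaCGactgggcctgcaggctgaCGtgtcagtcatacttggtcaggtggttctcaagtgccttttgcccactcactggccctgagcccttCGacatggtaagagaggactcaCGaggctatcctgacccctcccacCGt
Gm36136, chr13:7507068-7507367, plus strand: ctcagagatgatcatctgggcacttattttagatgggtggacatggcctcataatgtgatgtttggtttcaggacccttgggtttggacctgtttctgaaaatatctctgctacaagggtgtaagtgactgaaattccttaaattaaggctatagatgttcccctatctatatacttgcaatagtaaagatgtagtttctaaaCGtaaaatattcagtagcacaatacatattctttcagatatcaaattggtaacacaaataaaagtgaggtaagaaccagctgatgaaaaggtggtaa

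The 4930554I06Rik window lies in a 7465 bp interval 65139 bp from Tmc1, a gene for a channel of hair cells, and that interval had a mean score of 0.296. The Gm26761 window, in an interval of 4632 bp, followed with a mean score of 0.292. The Gm36136 window, in an interval 694693 bp from Adarb2, had 0.0561. None of the 4 was CpG-rich: the GC content was 50.7%, 47.0%, 53.3% and 36.3% in the order printed, with 4, 1, 7 and 1 CpG.

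Few distal intervals carried a lncRNA promoter, and those that did scored higher. A promoter window touched 600 distal intervals (1.71%), which had a median score of 0.128 against 0.114 for the rest, and this order held in 12 of 12 libraries. These intervals were also wider (median 2279.5 against 1699 bp), and width itself went with score. Within each width class the order stayed: 0.117 against 0.111 up to 1 kb, 0.116 against 0.106 from 1 to 2 kb, 0.130 against 0.123 from 2 to 4 kb, and 0.159 against 0.142 from 4 to 8 kb. A lncRNA span of any kind overlapped 6736 distal intervals (19.2%), with a median of 0.119 against 0.113 without.

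The lncRNA promoters inside distal intervals were poor in CpG. In 530 windows lying whole inside 465 distal intervals, the median ratio of observed to expected CpG was 0.208, and 15 windows (2.83%) were above 0.6, a common mark of a CpG island. The share above 0.6 was 14.0% of all 11588 lncRNA promoters and 47.6% of 21263 protein-coding promoters. Split by interval score, the share was 4.55% of the 176 windows with the highest scores, 2.25% of the middle 178 and 1.70% of the lowest 176.

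Short motifs were counted on both strands in the same windows. The AP-1 motif TGANTCA was in 12.8% of the windows inside distal intervals, against 9.31% of all lncRNA promoters and 6.99% of protein-coding promoters. The CDX motif TTTATNG, recognised by the intestinal factors CDX1 and CDX2, was in 16.4%, 13.4% and 9.58%, and the TATA box letters TATAAA in 22.5%, 15.5% and 12.6%. The TCF/LEF motif CTTTGAT, through which Wnt signaling acts, was in 5.47%, 4.67% and 3.22%. The GC-rich KLF/Sp1 motif GGGCGGG went the other way, with 2.64%, 10.3% and 33.9%, and of the printed windows it was in 4930554I06Rik alone. The cAMP response element TGACGTCA, the site of CREB downstream of EP4, was in 4 of the 530 windows (0.755%), against 0.975% and 2.23%. These are matches of letters, not measured binding, and the AT-rich and GC-rich motifs move with base composition.

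Because the mean score entered the rule, the level of distal intervals is a description. The median score was 0.114, with 5% of intervals below 0.0693 and 5% above 0.165, against a median of 0.118 for gene-near intervals (5% above 0.185). The median width was 1705 bp against 1766 bp. The distal median, in the order replicate 1 and replicate 2, was 0.117 and 0.115 in WT vehicle, 0.104 and 0.111 in WT AA, and 0.111 and 0.110 in WT PGE2. In the KO it was 0.114 and 0.114 with vehicle, 0.114 and 0.118 with AA, and 0.107 and 0.0900 with PGE2. The distal median was below the gene-near median in 12 of 12 libraries, and KO PGE2 replicate 2 stood lowest for both sets, with 0.0946 for gene-near intervals.

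Dividing the distal by the gene-near median within a library removes a difference of overall scale. That ratio was 0.965 and 0.944 in WT vehicle, 0.908 and 0.919 in WT AA, and 0.926 and 0.940 in WT PGE2. It was 0.954 and 0.951 in KO vehicle, 0.962 and 0.967 in KO AA, and 0.940 and 0.952 in KO PGE2. The WT AA libraries had the lowest ratios of all 12, and neither overlapped another group. The mean was 0.913 ± 0.00762 (SD, n = 2) in WT AA and 0.954 ± 0.0144 (SD, n = 2) in WT vehicle. In the KO the AA libraries had 0.964 ± 0.00353 (SD, n = 2) and the vehicle libraries 0.953 ± 0.00189 (SD, n = 2), the opposite order. With 2 libraries a group no exact permutation test of such a ratio could pass the threshold, so none is given.

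**Figure D1:**
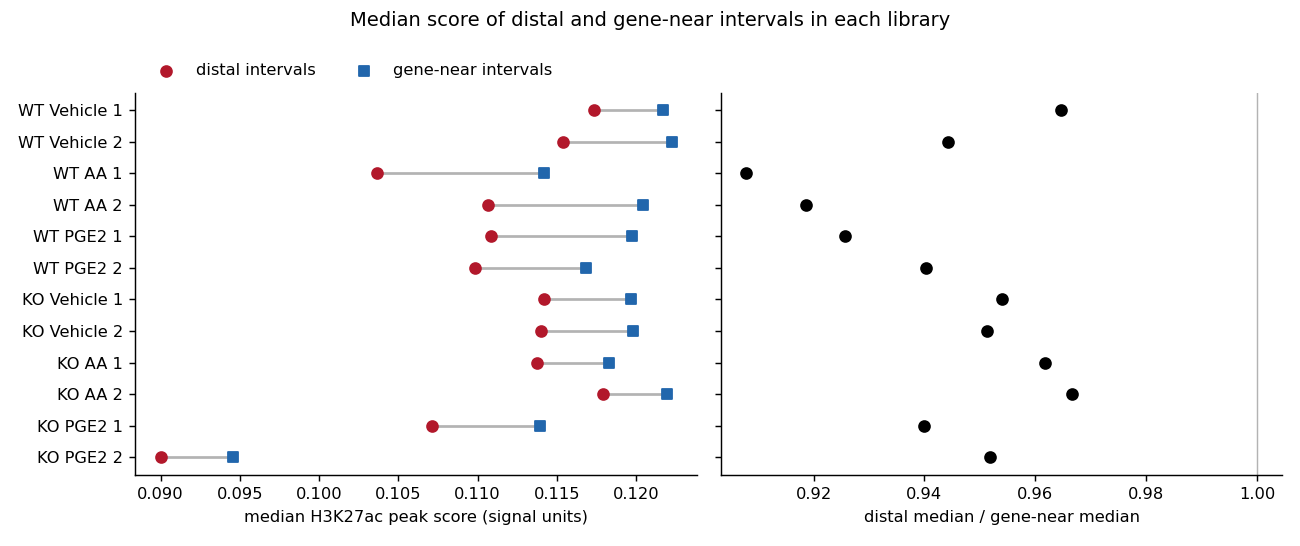
Left, the median H3K27ac peak score (signal units; the axis does not start at 0) of distal (red) and gene-near (blue) intervals in each of the 12 libraries; right, the distal median divided by the gene-near median. The ratio runs from 0.908 in WT AA replicate 1 to 0.967 in KO AA replicate 2 and is below 1 in every library, and KO PGE2 replicate 2 is low for both sets.

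Beyond 50 kb, scores fell with distance from genes. The median was 0.116 for the 12132 intervals at 50 to 100 kb, 0.115 for the 13468 at 100 to 250 kb, 0.113 for the 6256 at 250 to 500 kb and 0.106 for the 3213 beyond 500 kb. The fall held at every step in 12 of 12 libraries. Nearer to genes there was no such order: intervals inside or touching a gene had a median of 0.119, those at 1 bp to 10 kb 0.116 and those at 10 to 50 kb 0.117. The share of intervals above the 99th percentile of all SEACR intervals was 0.643%, 0.423%, 0.224% and 0.342% in the distal classes from near to far. It was 0.921% inside genes, 1.05% at 1 bp to 10 kb and 0.775% at 10 to 50 kb, so each distal class was below each gene-near class. The farthest intervals were also somewhat narrower, with a median of 1607 bp against 1730 bp at 50 to 100 kb.

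**Figure D2:**
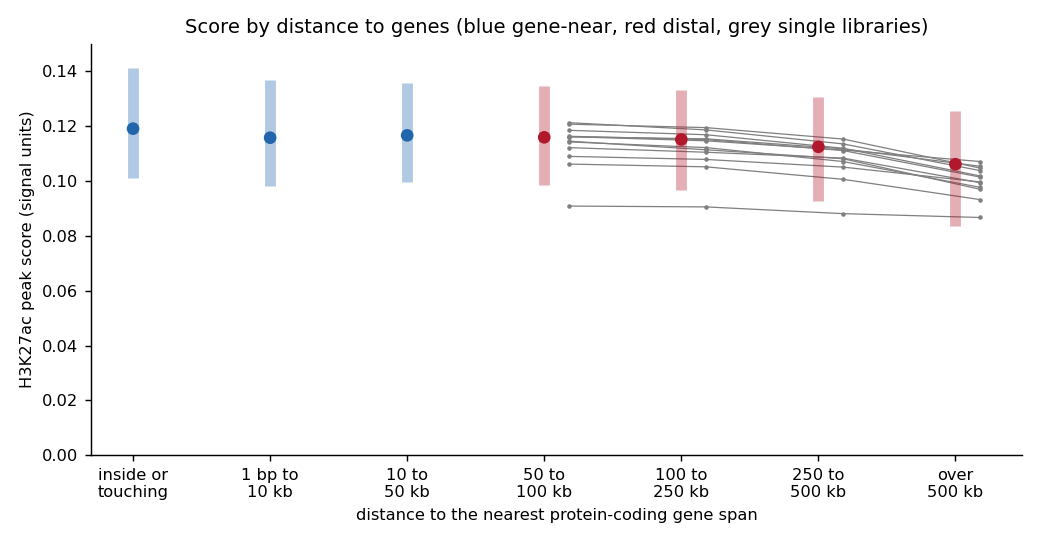
H3K27ac peak score (signal units) by distance to the nearest protein-coding gene span, with the median (dot) and the middle 50% of intervals (bar) of the 12-library mean; blue classes are gene-near, red classes distal, and each grey line joins the medians of 1 library over the distal classes. The medians fall from 0.116 at 50 to 100 kb to 0.106 beyond 500 kb, a drop smaller than the spread of intervals within a class.

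Wider distal intervals had higher scores, apart from the narrowest. Most were 1 to 2 kb wide (20495, or 58.4%), with a median score of 0.106. The 9996 intervals of 2 to 4 kb had 0.123 and the 2459 of 4 to 8 kb had 0.143, while the 2119 of up to 1 kb had 0.111. Gene-near intervals of 4 to 8 kb had 0.156 and made up 8.73% of their set, against 7.01% of the distal set. The rule limits width, so the widest members sit at its edge. They were a 7999 bp interval near Tbl1xr1, a gene for a corepressor subunit (mean score 0.146), one of 7990 bp near Ptpru (0.171) and one of 7983 bp near Cd34 (0.146). The nearest interval past the limit, 8008 bp wide near St18, had 0.180.

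Distal intervals came in runs. Joining neighbours no more than 12.5 kb apart gave 8992 runs, and 18404 intervals lay in the 800 runs of 10 or more. The median score rose with the size of the run: 0.0827 for intervals alone, 0.0987 in runs of 2 to 4, 0.112 in runs of 5 to 9 and 0.125 in runs of 10 or more. The longest run held 142 intervals over 661148 bp (chr2:48038607-48699754), beside Acvr2a, a receptor for activin. Others held 136 intervals beside Nectin3, an adhesion gene, and 93 beside Myc (chr15:62040943-62468756). Runs are formed by position alone, and the intervals of a run are not independent.

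The gene with most distal intervals nearest to it was Myc, the growth regulator downstream of Wnt, with 215 and a median score of 0.133. Cited2, a transcriptional coregulator, had 211 (0.126) and Zfp608 201 (0.123). Lcorl (185, 0.135), Acvr2a (178, 0.129) and Klf6 (169, 0.132) followed closely, and Nectin3 had the highest median of the 10 leading genes (161, 0.140). In all 3138 genes were nearest to a distal interval, and 592 had a single one. The count depends on how much empty sequence flanks a gene, since only that sequence can hold distal intervals.

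Of 39 regulators of intestinal identity and stem cells, 23 were nearest to a distal interval, 1027 intervals in all with a median score of 0.122. The strongest was 233705 bp from Klf5 (chr14:99547117-99552197), a factor of proliferating crypt cells, with a mean score of 0.283. Its scores were 0.257 and 0.303 in WT vehicle, 0.300 and 0.265 in WT AA, 0.323 and 0.371 in WT PGE2, 0.303 and 0.332 in KO vehicle, 0.249 and 0.257 in KO AA, and 0.262 and 0.171 in KO PGE2. All libraries were above the distal median and the genotypes overlapped. The next was 475964 bp from Myc (chr15:61502240-61509377), with WT scores of 0.226 to 0.346 (median 0.292) and KO scores of 0.137 to 0.251 (median 0.211). The KO values at this Myc interval were lower on the whole but overlapped the WT values, and the difference of -0.39 ± 0.11 (log2, SE) did not pass (limma, Benjamini-Hochberg adjusted p = 0.212). Klf5 had the highest median of the genes described here, 0.148 over 42 intervals, while Lgr5, the stem cell receptor for R-spondin, had 6 with a median of 0.114.

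The EP4 gene itself lies beside a desert. Ptger4 was nearest to 101 distal intervals, with a median score of 0.129. The strongest, 272284 bp away (chr15:5516471-5518833), scored 0.202 to 0.270 in WT (median 0.237) and 0.145 to 0.279 in the KO (median 0.214). The genotypes overlapped there, with a difference of -0.15 ± 0.12 (log2, SE; limma, Benjamini-Hochberg adjusted p = 0.741). The 31 prostaglandin and cAMP genes had 264 distal intervals near 16 of them (median 0.123). Ptger3, another PGE2 receptor gene, had 9 (0.0939), Ptgs2, the inducible enzyme that turns AA into prostaglandins, had 4 (0.102), and Nr4a3, a cAMP-induced factor, had 22 (0.108), all with lower medians than Ptger4. Pde4d, a cAMP phosphodiesterase gene, had 17 with a median of 0.130, close to that of Ptger4. Second in score was an interval 102360 bp from Pde7b, a phosphodiesterase that breaks down cAMP (mean score 0.220).

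Of 30 genes of AP-1, YAP, EGF signaling and regeneration, 12 were nearest to 134 distal intervals, with a median of 0.119. The strongest were near Ccn2, a YAP target (0.196), and 70135 bp from Areg, an EGF receptor ligand (0.193). The Areg interval had 0.134 to 0.274 in WT (median 0.218) and 0.138 to 0.231 in the KO (median 0.155), so the genotypes overlapped widely.

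Distal intervals near neuronal and sensory receptor genes had lower scores. For 73 neuronal adhesion and guidance genes, 60 of them nearest to 975 distal intervals, the median was 0.103, and for 36 olfactory and vomeronasal receptor genes with 121 intervals it was 0.10. Over all distal intervals it was 0.114. The neuronal list also lies farther out, at a median of 319 kb against 139 kb for all distal intervals, and distance went with score, but the olfactory list lies nearer, at a median of 84.9 kb. Single intervals of these lists were high all the same, such as one 635366 bp from Epha7, an ephrin receptor gene, with a mean score of 0.287 and a lowest library of 0.232.

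The highest scores did not look like those of typical distal intervals. At the top was a 3062 bp interval at chr17:13588561-13591622, 124814 bp from Tcte2, with a mean score of 0.966 and libraries from 0.777 to 1.18; it was also the member just inside the score limit. Next came 2 intervals within 500 kb of the outermost interval of their chromosome, near Fam171a1 on chromosome 2 (0.864) and near Olfr161 on chromosome 16 (0.862). They were followed by 1 near Sema6d (0.831) and 1 near Pex2 (0.680). Of the 25 highest, 8 (32.0%) lay within 500 kb of the outermost interval of a chromosome, against 1.14% of all distal intervals, and 17 overlapped an interval of MACS2, the other peak caller. Just outside the score limit was an interval at chr16:3349532-3351726 with a mean of 1.04.

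MACS2 called far fewer intervals, 702 in all. They overlapped 72 distal intervals (0.205%) and 487 gene-near intervals (0.383%). The distal intervals with such support had a median score of 0.217, against 0.114 without. Distal intervals near olfactory and vomeronasal receptor genes had a median of 0.10. How many distal intervals stand above background signal was not tested.

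Just outside the limit of distance, an interval 49998 bp from Tmem158 had a mean score of 0.125. At the other extreme, the 3 farthest members were 2251048 bp from Pik3c3 (0.0666), 2202729 bp from Pcdh17 (0.0934) and 2114877 bp from Celf4 (0.0592), all below the distal median.

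The label of intestinal epithelium was checked on markers. For 15 of 16 epithelial marker genes with a SEACR interval (Muc2 had none), the strongest interval had a median of 0.207, from 0.106 at Olfm4 to 0.264 at Fabp2. For 11 of 16 markers of other gut cells it was 0.106, with the highest at Pecam1 (0.173), and Col1a2, Col3a1, Des and Kdr were among those without an interval. Replicates of a group were only loosely alike across distal intervals. The Spearman correlation was 0.317 ± 0.126 (SD) over 6 pairs within a group, 0.297 ± 0.0999 over 24 pairs of the same genotype in other groups and 0.281 ± 0.0881 over 36 pairs across genotypes, as a description, since all libraries share the same intervals. KO PGE2 replicate 2 stood apart with a mean of 0.101 with the other libraries, and KO PGE2 replicate 1 had 0.245 against 0.280 to 0.359 for the rest. Main counts and medians that rest on these libraries are given with and without them.

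KO against WT was the only contrast in which any distal interval passed. The labels give neither the strain nor the number of animals. Loss of Ptger4 therefore cannot be told apart from other differences between the KO and WT organoids. Over the 3 treatments, 6 of 35047 tested distal intervals differed between KO and WT (limma, Benjamini-Hochberg adjusted p below 0.05 over all 166471 tested intervals), 2 higher and 4 lower in the KO. The share over all tested intervals was 0.0427% (0.0114% higher, 0.0312% lower), so the distal count is no larger a share. The median change of distal intervals was -0.02 against -0.05 for all intervals, on the log2(score + 0.0579) scale, and 46.0% of distal intervals were higher in the KO. The distal median changed sign to 0.02 without both KO PGE2 libraries, and to 0.01 with quantile normalization or median centring. Without both KO PGE2 libraries the difference was taken over vehicle and AA alone, so WT PGE2 left it too. At an unadjusted p below 0.05 there were 2679 distal intervals (7.64%), against 9.11% of all intervals. All 12 libraries entered the fit, and 22 distal intervals failed the filter on low scores.

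The largest difference was 1140264 bp from Galc, between Galc and Flrt2 (chr12:97061263-97062023, 761 bp). Its scores were 0.424 and 0.614 in WT vehicle, 0.710 and 0.507 in WT AA, and 0.382 and 0.514 in WT PGE2. The KO scores were 0.113 and 0.154 with vehicle, 0.231 and 0.0563 with AA, and 0.198 and 0.308 with PGE2. Every KO library was below every WT library. The interval fell by 1.38 ± 0.15 on the log2 scale (SE; limma, Benjamini-Hochberg adjusted p = 0.000145). With vehicle alone the difference was -1.58 ± 0.27, which did not pass (limma, Benjamini-Hochberg adjusted p = 0.223). It overlapped a MACS2 interval and stood alone, with no distal neighbour within 12.5 kb. Of the other passing intervals, those near Tnc and Axin2 also overlapped a MACS2 interval. Like the one near Galc, they were among the 25 highest distal intervals described above as not typical. The passing intervals near Gdi2, Rhou and Eea1 had neither trait. That near Gdi2, however, lay within 500 kb of the outermost interval of its chromosome, as did 1.14% of all distal intervals. It also stood alone, at percentile 99.6 of the distal scores.

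The second lower interval holds the start of the lncRNA Gm36059, whose promoter is printed above, and lies 53655 bp from Rhou, a gene for a small GTPase (chr8:123717535-123718694). It scored 0.251 and 0.209 in WT vehicle, 0.265 and 0.201 in WT AA, and 0.227 and 0.230 in WT PGE2. In the KO it had 0.0985 and 0.154 with vehicle, 0.121 and 0.108 with AA, and 0.105 and 0.0382 with PGE2. The genotypes did not overlap, and the interval fell by 0.87 ± 0.15 (log2, SE; limma, Benjamini-Hochberg adjusted p = 0.0216). Without both KO PGE2 libraries, a fit added after these values were seen, the difference was -0.70 and no longer passed (limma, Benjamini-Hochberg adjusted p = 0.120).

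An interval 70528 bp from Eea1, a gene for an early endosome tether (chr10:96116046-96117095), had 0.101 to 0.266 in WT (median 0.192) and 0.0373 to 0.136 in the KO (median 0.0720). WT AA replicate 1, at 0.101, lay below both KO vehicle libraries, so the genotypes overlapped. It fell by 0.87 ± 0.17 (log2, SE; limma, Benjamini-Hochberg adjusted p = 0.0428), and by 0.48 without both KO PGE2 libraries, where it did not pass (limma, Benjamini-Hochberg adjusted p = 0.575).

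The fourth lower interval was 59987 bp from Axin2, a negative feedback gene of Wnt signaling, inside the span of the lncRNA Gm36876 and in a run of 20 (chr11:109010770-109012718). It scored 0.424 and 0.385 in WT vehicle, 0.487 and 0.539 in WT AA, and 0.443 and 0.452 in WT PGE2. The KO scores were 0.399 and 0.254 with vehicle, 0.264 and 0.215 with AA, and 0.444 and 0.277 with PGE2. KO vehicle replicate 1 and KO PGE2 replicate 1 reached the WT range, and the other KO libraries were below it. The interval fell by 0.51 ± 0.10 (log2, SE; limma, Benjamini-Hochberg adjusted p = 0.0479). Axin2 had 19 distal intervals nearest to it, with a median score of 0.131 and a median change of -0.05 in the KO.

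The 2 higher intervals had their highest scores in the KO PGE2 libraries. The first lies 500672 bp from Gdi2 at the start of chromosome 13 (chr13:3036689-3037403). It had 0.121 and 0.181 in WT vehicle, 0.125 and 0.169 in WT AA, 0.0519 and 0.163 in WT PGE2, 0.223 and 0.250 in KO vehicle, 0.258 and 0.267 in KO AA, and 0.485 and 0.464 in KO PGE2. All KO libraries were above all WT libraries, with KO PGE2 far above the rest. It rose by 0.98 ± 0.14 (log2, SE; limma, Benjamini-Hochberg adjusted p = 0.00417), but by 0.58 without both KO PGE2 libraries, where it did not pass (limma, Benjamini-Hochberg adjusted p = 0.479).

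The other higher interval is 347 bp wide and 450707 bp from Tnc, a gene for an extracellular matrix protein (chr4:64497722-64498068). It had 0.451 to 0.542 in WT, and in the KO 0.695 and 0.648 with vehicle, 0.556 and 0.566 with AA, and 0.798 and 1.44 with PGE2. The genotypes did not overlap, and KO PGE2 replicate 2 lay far above all others. It rose by 0.57 ± 0.09 (log2, SE; limma, Benjamini-Hochberg adjusted p = 0.00731), and by 0.27 without both KO PGE2 libraries, where it did not pass (limma, Benjamini-Hochberg adjusted p = 0.120). Leaving out both KO PGE2 libraries changed the count of passing distal intervals to 4. The intervals near Gdi2, Tnc, Rhou and Eea1 were not among those 4, so some of them were not among the 6. Leaving out only replicate 1 or only replicate 2 gave 150 and 19. All 6 calls were lost when the variance was not allowed to follow the mean score.

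**Figure D3:**
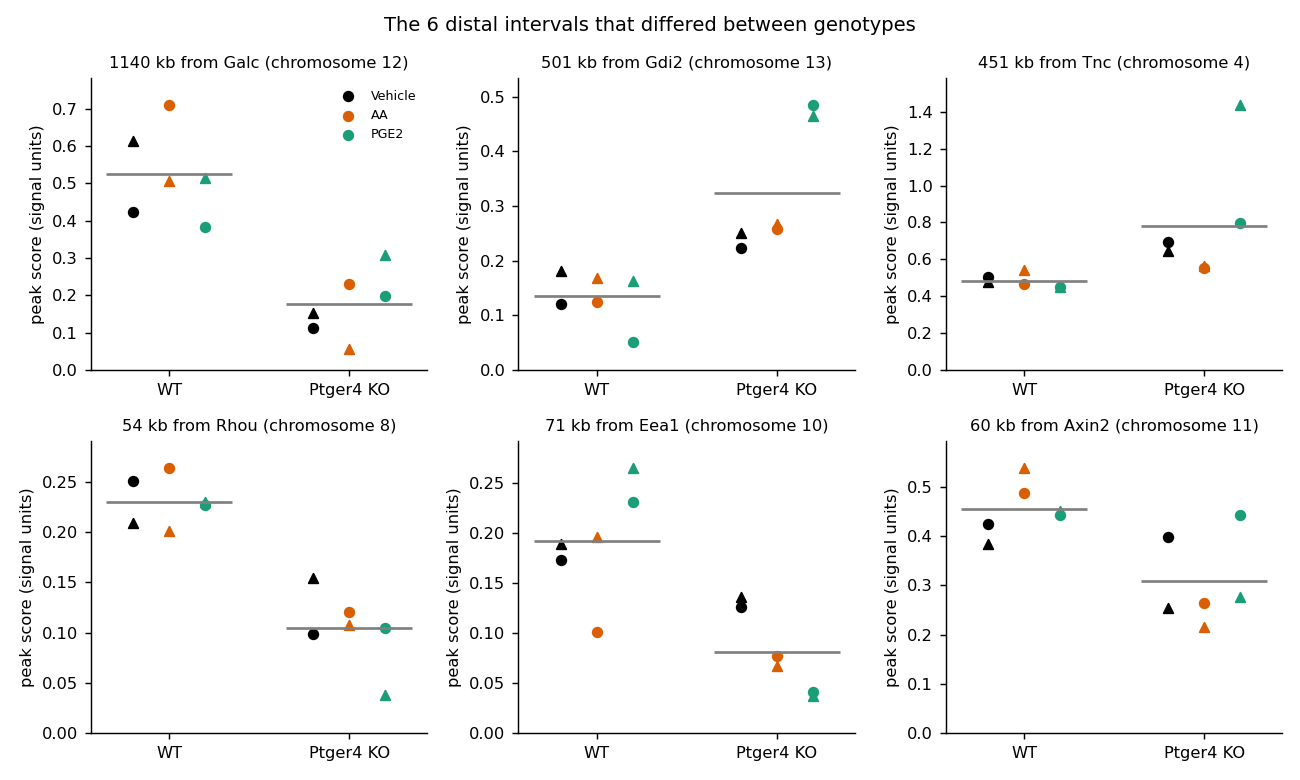
H3K27ac peak score (signal units, each axis from 0) of the 6 distal intervals that passed between genotypes, 1 panel each; circles are replicate 1 and triangles replicate 2, colours give the treatment, and the grey line is the mean of 6 libraries. The interval near Galc is at 0.382 to 0.710 in WT and 0.0563 to 0.308 in the KO, while the rises near Gdi2 and Tnc are led by the KO PGE2 libraries.

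Counting without a model, all 6 KO scores were above all 6 WT scores in 40 distal intervals and below them in 117, together 0.448% of those tested. The same share was 0.684% of all intervals (0.125% above, 0.559% below), so separation by genotype was no more frequent among distal intervals.

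With all 12 libraries, the median genotype change went with distance and with score. It was -0.03 at 50 to 100 kb, -0.02 at 100 to 250 kb, -0.01 at 250 to 500 kb and 0.02 beyond 500 kb. Quartiles of mean score were set over distal and gene-near intervals together. From low to high the genotype median was 0.07, -0.01, -0.05 and -0.09 in the distal set. In the gene-near set it was 0.03, -0.02, -0.05 and -0.12. With vehicle alone it was 0.04, -0.02, -0.05 and -0.05 in the distal set. PGE2 against vehicle in the KO gave distal medians of 0.00, -0.14, -0.18 and -0.23, which also fell with score. How much of the genotype slope comes from the KO PGE2 libraries was not tested. By list the genotype median over the 3 treatments was -0.04 for the intestinal genes and -0.02 for prostaglandin and cAMP genes. It was 0.03 for AP-1, YAP and EGF genes, 0.05 for neuronal genes and 0.07 for olfactory genes. With vehicle alone the 5 lists had -0.03, 0.02, 0.04, 0.05 and 0.04 in that order. Their median scores, in the same order, were 0.122, 0.123, 0.119, 0.103 and 0.10. The part of score level in the list medians was not tested. No interval of any of the 5 lists passed in any of the 9 comparisons. Of the 1027 intervals of the intestinal list 440 were higher in the KO, and of the 975 of the neuronal list 567 were. Over all distal intervals the share was 46.0%. Of the 20 genes with most distal intervals, 15 had a negative and 5 a positive median. Among genes singled out after their values were seen, Klf5 had -0.15 over its 42 intervals, Klf6 -0.16 over 169, Myc -0.07 over 215 and Ptger4 -0.05 over 101. On the other side were Epha7 with 0.11 over 126, Tle4, a corepressor gene, with 0.10 over 137 and Klf4 with 0.03 over 84. Tle4 lies on chromosome 19, where all distal intervals together had a median of 0.08.

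Chromosome 19 stood apart from the other autosomes. The median of its 913 distal intervals, divided by that of all other distal intervals in the same library, was 0.918 ± 0.00739 in WT (SD, n = 6, 0.911 to 0.930) and 1.03 ± 0.0231 in the KO (SD, n = 6, 1.01 to 1.07). No KO library overlapped a WT library. On this chromosome 617 distal intervals (67.6%) were higher in the KO, with a median change of 0.08, yet none passed by itself and none had all KO above all WT scores. Its 4832 gene-near intervals gave a like ratio, 0.987 ± 0.00971 in WT (SD, n = 6) and 1.08 ± 0.0205 in the KO (SD, n = 6). Chromosomes 13 (1.06 in WT, 1.02 in the KO) and 3 (0.986 and 0.962) were the other ones without overlap, both lower in the KO. Chromosome 19 was singled out after its values were seen, so no test is given, and Ptger4 itself is on chromosome 15. No measure of DNA copy number was used here, so more copies of the chromosome and more signal per copy cannot be told apart.

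**Figure D4:**
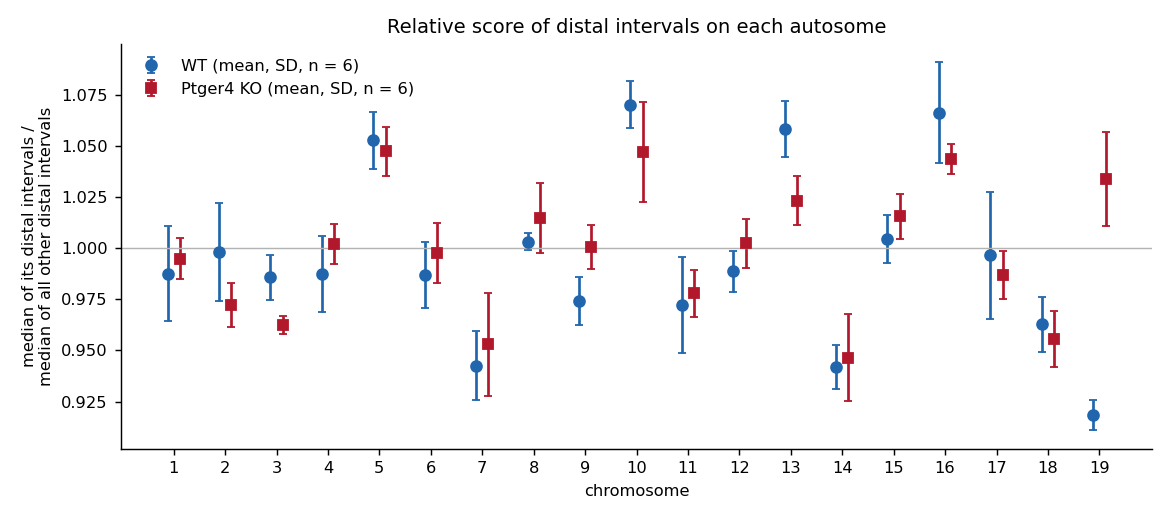
For each autosome, the median score of its distal intervals divided by the median of all other distal intervals in the same library (a ratio without units; the axis does not start at 0), as mean and SD over 6 WT (blue) and 6 KO (red) libraries. Chromosome 19 moves from 0.918 to 1.03, the widest gap between genotypes among the 19 autosomes.

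With vehicle alone, no distal interval passed between KO and WT (limma, Benjamini-Hochberg; 0.000601% of all intervals passed), and 1599 (4.56%) had an unadjusted p below 0.05, against 4.55% of all. The interval of smallest p in the higher direction was 238154 bp from Pard3b, a polarity gene, at 1.68 ± 0.33 (log2, SE; limma, Benjamini-Hochberg adjusted p = 0.460), which did not pass.

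With AA in WT organoids no distal interval passed (0 of 35047; 0.0% of all intervals; limma, Benjamini-Hochberg). At an unadjusted p below 0.05 there were 1666 (4.75%), against 4.56% of all. The median change was -0.07 for distal, -0.03 for gene-near and -0.04 for all intervals, and 40.5% of distal intervals were higher with AA. The distal median was -0.04 with quantile normalization (all intervals 0.00) and -0.03 with median centring (all intervals 0.01). The lower distal median held in each quartile of score: -0.04, -0.09, -0.09 and -0.08 in the distal set, against -0.02, -0.04, -0.05 and -0.01 in the gene-near set. Across distance classes from near to far it was -0.07, -0.07, -0.08 and -0.08, and inside genes -0.02. By list it was -0.09 for the intestinal genes, -0.10 for AP-1, YAP and EGF genes, -0.10 for prostaglandin and cAMP genes and -0.08 for neuronal genes, so the lists did not stand far from all distal intervals, and the olfactory list had 0.02.

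The smallest p values with AA in WT belonged to intervals near Spock3 and Tox. The first, 121035 bp from Spock3, had 0.0127 and 0.0141 with vehicle and 0.136 and 0.276 with AA. The second, 89973 bp from Tox, a gene for a nuclear HMG-box protein, had 0.246 and 0.259 with vehicle and 0.0803 and 0.0410 with AA. Neither passed (1.84 ± 0.39 and -1.41 ± 0.27, log2 and SE; limma, Benjamini-Hochberg adjusted p = 1.00 for both). Both were picked for their small p in this comparison, so the gap between their vehicle and AA scores is no separate evidence. The vehicle scores near Spock3 were also below the amount added before the log2 transform.

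PGE2 in WT organoids likewise gave no passing distal interval (0.0% of all; limma, Benjamini-Hochberg), with 2037 (5.81%) at an unadjusted p below 0.05 against 5.8% of all. The median change was -0.05 for distal and -0.03 for gene-near intervals, and -0.02 for distal intervals with quantile normalization, median centring or the larger pseudocount. Axin2 had -0.44 over its 19 distal intervals and Sox9, a stem and Paneth cell factor, -0.24 over 88, while Ptger4 had 0.03 over 101. Ptgs2 had 0.54 over only 4 and Pcdh9 0.73 over only 2. With AA in WT, against the same vehicle libraries, Axin2 had -0.15 and Sox9 -0.22. These are medians of intervals that share a neighbourhood and were not tested. The interval of smallest p, 74725 bp from Emx2, went from 0.0574 and 0.0522 with vehicle to 0.237 and 0.50 with PGE2 and did not pass (1.85 ± 0.32, log2 and SE; limma, Benjamini-Hochberg adjusted p = 0.430). In the lower direction it was 64346 bp from Mme, a peptidase gene, with 0.222 and 0.264 against 0.0585 and 0.0817 (-1.24 ± 0.27, log2 and SE; limma, Benjamini-Hochberg adjusted p = 0.603).

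AA and PGE2 were not separated at any distal interval in WT organoids (0 passing; 0.0% of all; limma, Benjamini-Hochberg), and 1838 (5.24%) had an unadjusted p below 0.05 against 5.27% of all. The smallest p values were near Adam6a (1.73 ± 0.37) and Cps1, the first enzyme of the urea cycle (-1.92 ± 0.38), with AA minus PGE2 in log2 and SE (limma, Benjamini-Hochberg adjusted p = 0.735 for both). The median difference was -0.02 for distal intervals and 0.00 for gene-near intervals, and the distal value was -0.06 without WT AA replicate 2 and -0.0012 without WT AA replicate 1.

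In KO organoids AA gave no passing distal interval (0.0% of all; limma, Benjamini-Hochberg) and 1327 (3.79%) at an unadjusted p below 0.05, against 3.74% of all. The median change was 0.01 for distal and -0.01 for gene-near intervals, and the distal value turned to -0.04 with a 4 times larger pseudocount. The smallest p was 294339 bp from Pcdh18, a protocadherin gene, with 0.0370 and 0.0123 for vehicle and 0.213 and 0.184 for AA (1.65 ± 0.34, log2 and SE; limma, Benjamini-Hochberg adjusted p = 1.00). In the lower direction an interval near Adgrl3 had -1.29 ± 0.28 (log2, SE; limma, Benjamini-Hochberg adjusted p = 1.00).

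PGE2 in KO organoids gave no passing distal interval either (0.0% of all; limma, Benjamini-Hochberg), with 3137 (8.95%) at an unadjusted p below 0.05 against 8.68% of all. The median change was -0.15 for distal, gene-near and all intervals alike, and it rested on KO PGE2 replicate 2: without it the distal median was -0.07, and without replicate 1 it was -0.25 with 23 passing. The smallest p values belonged to an interval 187195 bp from Crim1, with 0.229 and 0.248 for vehicle and 0.0342 and 0.0464 for PGE2 (-1.60 ± 0.29, log2 and SE; limma, Benjamini-Hochberg adjusted p = 0.203), and to one 97061 bp from Vmn2r87, with 0.561 and 0.647 against 0.909 and 1.42 (0.85 ± 0.18, log2 and SE; limma, Benjamini-Hochberg adjusted p = 0.311). Neither passed.

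Whether a treatment acted differently in the KO was tested as an interaction. For AA no distal interval passed (0.0% of all; limma, Benjamini-Hochberg), and 1461 (4.17%) had an unadjusted p below 0.05 against 4.14% of all. The median interaction was 0.08 for distal and 0.02 for gene-near intervals, with 57.2% of distal intervals above 0, and the distal value turned to -0.03 with a 4 times larger pseudocount. Intervals near Pcdh18 (2.37 ± 0.48) and Tenm3 (-3.01 ± 0.69) had the smallest p values (log2, SE; limma, Benjamini-Hochberg adjusted p = 1.00 for both). For PGE2 none passed (0.0% of all; limma, Benjamini-Hochberg), and 2150 (6.13%) had an unadjusted p below 0.05 against 6.42% of all, with a median of -0.09 for distal and -0.11 for gene-near intervals. The distal median was -0.18 without KO PGE2 replicate 1, -0.02 without KO PGE2 replicate 2, and just above 0 with quantile normalization (0.0022) or median centring (0.01). The intervals of smallest p were near Stt3b (2.35 ± 0.50; limma, Benjamini-Hochberg adjusted p = 0.563) and near Akr1e1 (-2.57 ± 0.46; limma, Benjamini-Hochberg adjusted p = 0.245). The treatment comparisons of a genotype share their vehicle libraries, so their medians are given side by side and not set against each other.

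**Figure D5:**
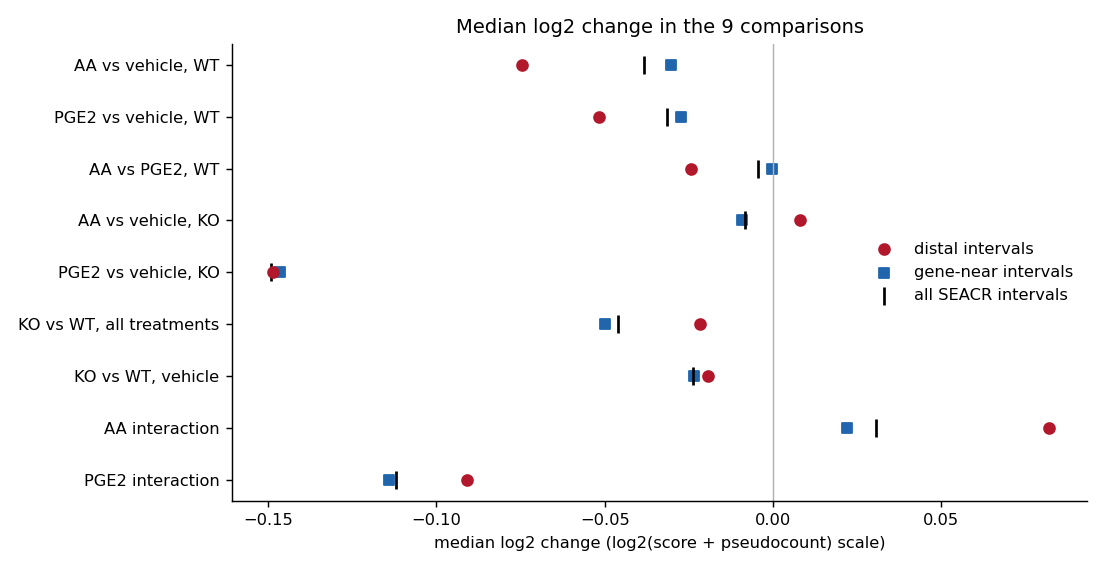
Median fitted change, on the log2(score + 0.0579) scale, of distal intervals (red), gene-near intervals (blue) and all SEACR intervals (black bar) in the 9 comparisons. The distal median lies below the gene-near median for AA in WT (-0.07 and -0.03) and above it for the AA interaction (0.08 and 0.02), while both lie near -0.15 for PGE2 in the KO.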

How the data were processed

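H3K27ac CUT&RUN was analysed in 12 libraries of 6 groups. The authors deposited a peak score, a signal value for each interval in each library, made with SEACR and MACS2 on mm10, per the submitters' processing notes. The aligner, caller settings and score normalization were not given in the sources used here. Library depth is therefore unknown. All 12 sample names in the table matched the labels. In those names EP4KO was read as Ptger4 KO and Control as vehicle.

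Gene spans were those of 21900 protein-coding genes in RefSeq GRCm38.p6, the assembly that mm10 represents. The score was log2-transformed after adding 0.0579, the 10th percentile of the non-zero SEACR scores. Intervals above that value in at least 2 libraries were tested, 166471 in all. A model of 6 group means was fitted to all 12 libraries with limma 3.58.1 in R 4.3.3 (variance trend on, 6 residual and 20.1 prior degrees of freedom), with Benjamini-Hochberg adjustment over all tested intervals and a threshold of 0.05. The fit was tested on simulated data. A log2 change on this scale understates changes of low scores.

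Named intervals were, per comparison and direction, up to 5 passing with the smallest p (or, with none passing, the 1 of smallest p), the 5 with the highest score, the 3 widest, the 3 farthest from genes, those at the limits of the rule and the top 2 of each gene list. Other genes and the lncRNA promoters were chosen after their values were seen. The distal intervals and all lists were chosen with earlier results of these data known. Alternatives were other normalizations, pseudocounts, filters, variance settings, distance limits, a replicate block and leaving out each library. H3K27me3 and H3K4me3 were not analysed here. The member just inside the distance limit and 2 marker genes are not reported here.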

Additional observations from a re-analysis of the deposited data

Results flagged for a closer look

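At the interval 450707 bp from Tnc on chromosome 4, KO PGE2 replicate 2 had the highest score of the 6 KO libraries, 1.44, with the next at 0.798. Among 16 sets of 6 libraries examined in this way, this was the 1 with such an isolated library. The sets were the 6 passing intervals, the distal median and the distal to gene-near ratio in each genotype. Chance alone gives about 1 in 20 in independent, unselected sets. These sets share libraries, and most are intervals picked on the same scores, so that rate need not hold for them. KO PGE2 replicate 2 was also the lowest in overall score.

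The ratio of the distal to the gene-near median moved in opposite directions with AA in the 2 genotypes. It changed by -0.0411 in WT and by 0.0115 in the KO, and every AA library lay on that side of both vehicle libraries of its genotype. The difference between the genotypes was not tested.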

How the results depend on the processing

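Of 489 recomputed main values, 439 stayed close to the reported value and 50 moved. Of 477 recomputed single intervals none reversed, 54 lost their call and 7 gained one.

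The 6 genotype calls became 0 without the variance trend, 3 with only intervals above the median score, 3 with a distance limit of 100 kb and 10 with 25 kb. They ranged from 1 to 150 without single libraries: 1 without KO AA replicate 2, 2 or 3 without most others, 19 without KO PGE2 replicate 2 and 150 without KO PGE2 replicate 1. The call near Galc was lost only without the trend (limma, Benjamini-Hochberg adjusted p = 0.131). Those near Gdi2, Tnc, Rhou, Eea1 and Axin2 were lost in 3, 9, 12, 16 and 13 of 23 alternatives. The non-overlap count of 157 was 102 at 100 kb and 238 to 292 without single libraries. Fitting only the groups compared gave 1 call for AA in the KO and 1 for KO against WT with vehicle, where quantile normalization also gave 1. Without single libraries, calls ranged from 0 to 23 for PGE2 in the KO, 0 to 4 for the PGE2 interaction and 0 to 1 for the vehicle contrast.

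The median change with PGE2 in the KO was -0.027 with quantile normalization, -0.013 with median centring, -0.21 with a 4 times smaller pseudocount, -0.21 above the median score and -0.25 to -0.072 without single libraries. Over all intervals, centring moved it from -0.15 to -0.01. The genotype median of -0.02 changed sign to 0.014 with quantile normalization, 0.013 with centring and 0.020 without both KO PGE2 libraries. It was -0.084 with a 4 times larger pseudocount and -0.05 to 0.00 without single libraries. The AA interaction median was 0.030 with centring, 0.06 to 0.11 without single libraries and -0.028, of the other sign, with the larger pseudocount. The PGE2 interaction median was 0.0022 with quantile normalization, 0.011 with centring and -0.185 to -0.019 without single libraries. The median for AA in WT was -0.035 with quantile normalization, -0.028 with centring, -0.025 with the larger pseudocount and -0.11 to -0.06 without single libraries. For AA in the KO it was -0.042 with the larger pseudocount and -0.01 to 0.02 without single libraries, and for AA against PGE2 in WT -0.06 to -0.0012. For PGE2 in WT it was -0.024 with quantile normalization, -0.018 with centring and -0.023 with the larger pseudocount. A lone library of a group was taken to vary like the other groups.

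Same-numbered libraries did not deviate together across distal intervals (correlations of -0.0137 to 0.0135), so no pairing by number was seen there. Libraries of a group correlated at only 0.317 over these intervals, so a weak shared effect could be missed. With a replicate block 5 distal intervals passed between genotypes, and the block changed no other count and no median. Depth is unknown, so counting error could not be given.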
